A study of Mus musculus with 4 samples.

Results

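Interleukin 1 acts through a small set of receptors and adaptors, and 6 genes of that set are described here: Il1r1, Il1rap, Il1r2, Il1rn, Irak3 and Myd88. They were chosen by name, and each is 1 row of the 16305 genes in the joined count table. Il1rn had no row in the table of tumour 1, which lists no gene that is 0 in all wells, and was taken as 0 there. The cells were sorted as cancer-associated fibroblasts (CAFs) from 4 untreated APTKA tumours, which grew orthotopically in the colon of female C57BL6J mice. All 4 tumours carried the same labels, so there is no treated or genetically altered group, and comparisons were made between groups of cells from the same tumours. The age of the mice and the gate of the sort were not given in the sources used here, and nothing in the labels ties a tumour to its own mouse, so p-values measure only the spread between these 4 tumours.

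Interleukin 1 alpha and beta bind the receptor IL1R1, which then pairs with the accessory chain IL1RAP. The pair recruits the adaptor MYD88 and kinases of the IRAK family, and the signal ends in NF-kB and MAP kinase activity. Several proteins hold this signal back: IL1R2 binds the ligand but has no signalling domain and is called a decoy receptor, IL1RN is a secreted antagonist that occupies IL1R1, and IRAK3 is an inactive member of the kinase family that is best known as a brake in monocytes and macrophages. In the tumour stroma, interleukin 1 is known as a signal that moves fibroblasts towards an inflammatory, cytokine-making state, and contractile, matrix-making fibroblasts are usually set against that state.

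Single cells were read by SORT-seq, which counts mRNA molecules from their 3′ ends with unique molecular identifiers (UMIs), in 1 plate of 384 wells per tumour. Wells were kept from 1000 transcripts upwards and with a mitochondrial share of 30% or less, which left 43, 250, 243 and 204 cells in tumours 1 to 4 with median totals of 5552, 8516, 8108 and 9474.5 transcripts. Tumour 1 was a poorer plate, with 44% spike-in RNA and a median mitochondrial share of 14.4% against 5.25 to 6.14% in the other tumours, so results that use it are also given without it where the call changes. Clustering without the 6 genes gave 603 fibroblast-like cells (30, 211, 201 and 161 in tumours 1 to 4) in 11 clusters, 35 smooth-muscle-like, 34 pericyte-like and 17 Cajal-like cells (Cajal cells pace gut muscle), 46 globin-rich cells and 5 unnamed cells. The clusters were named from marker genes, so the summed level of the 10 fibroblast markers, 496 to 632 transcripts per 10000 in the fibroblast-like cells of the 4 tumours, describes the label and is no check of it. In tumours 2, 3 and 4 it was 599 to 632 in fibroblast-like cells and 177 to 336 in smooth-muscle-like and pericyte-like cells together. Single defining markers of other cell types were mostly at or near 0 over the 740 cells. Adgre1, Csf3r and Cd3e had no transcript, and Ptprc and Lyz2 had 1 each. Itgam and S100a9 had 2 each, Cd79a and Epcam had 3 each and Pecam1 had 7. Among these single genes the exceptions were the macrophage receptor Csf1r, with 29 transcripts in 20 cells, and the neutrophil gene S100a8, with 8 in 3 cells. The longer marker lists were not at 0. In fibroblast-like cells neutrophil genes summed to 0.887 to 3.08 and endothelial genes to 0.685 to 0.868 transcripts per 10000. Some listed genes were in at least 25% of a cluster's cells at a log2 fold of at least 1 over other cells. In fibroblast-like clusters these included Cxcr2 (cluster 2), Mmp9 and Cd14 (cluster 6), Lcn2 (cluster 12) and Eng (cluster 4). Levels below are transcripts per 10000 transcripts of the same cells, which count 3′ ends and need no correction for gene length. The totals include mitochondrial genes and the gene Rn45s, which held 3.55, 23.1, 10.6 and 10.1% of the transcripts on the plates of tumours 1 to 4. Levels of different tumours thus rest on totals of differing make-up.

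The signalling receptor Il1r1 was found in about every other fibroblast-like cell. Its level in fibroblast-like cells was 0.30, 1.30, 1.16 and 1.04 transcripts per 10000 in tumours 1 to 4 (0.950 ± 0.446, mean ± SD over 4 tumours). Tumour 1 stood below the other tumours, with 8 transcripts in its 30 cells (exact Poisson interval 0.130 to 0.595). At least 1 UMI was seen in 317 of 603 cells, 52.6% (95% Clopper-Pearson interval 48.5 to 56.6), and in 27.6% of the 525 cells that could be thinned to 3000 UMIs each. Pericyte-like cells carried a similar level, 0.789 ± 0.375 (n = 3 tumours with at least 5 such cells), and 55.9% of them had a UMI. Their cluster was also raised in the endothelial genes Emcn, Esam, Flt1 and Eng, with a mean log2 fold of 2.72 over the 10 listed. Whether it holds endothelial cells was not tested. Smooth-muscle-like cells ranged from 0 to 2.08 over 4 tumours, and Cajal-like cells stood at 0.146 ± 0.206 (n = 2). No Il1r1 transcript was found in the 46 globin-rich cells, a shallow cluster with a median of 2179 transcripts, where a count of 0 allows a share of up to 6.52% by 3 counts. With all cells thinned to 900 UMIs, 10.3% of fibroblast-like and 0% of globin-rich cells had one. Free RNA was not measured, and its part in these shares was not tested. Intervals and floors cover counting error only.

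Il1rap, the accessory chain, was a low gene in the classes that had it, and the 46 globin-rich cells had none. Fibroblast-like cells held 0.11, 0.18, 0.23 and 0.21 transcripts per 10000 in tumours 1 to 4 (0.186 ± 0.0528), and 18.6% of them had a UMI. The values of the other classes spanned those of the fibroblast-like cells: 0.433 ± 0.214 in Cajal-like (n = 2), 0.222 ± 0.201 in pericyte-like (n = 3) and 0.123 ± 0.143 in smooth-muscle-like cells (n = 4). Myd88, the adaptor shared by interleukin 1 receptors and most Toll-like receptors, was at 0.30, 0.47, 0.62 and 0.67 in fibroblast-like cells (0.516 ± 0.166). Globin-rich cells were near 0, at 0.0668 ± 0.116 (n = 3) with a mean share of 2.08% of cells, and each other named class had it. The mean of Myd88 was higher than in fibroblast-like cells in Cajal-like cells (1.01 ± 0.229, n = 2), smooth-muscle-like cells (0.830 ± 0.464) and pericyte-like cells (0.757 ± 0.450). The ranges overlapped the fibroblast-like ones in the smooth-muscle-like and pericyte-like cells.

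The decoy receptor Il1r2 had the most restricted distribution of the 5 genes with enough transcripts to follow. Its level in fibroblast-like cells was 0.08, 0.27, 0.52 and 0.48 transcripts per 10000 in tumours 1 to 4 (0.336 ± 0.205, n = 4). Among all other cells it was seen once, as 1 transcript in a smooth-muscle-like cell of tumour 3, and the pericyte-like, Cajal-like and globin-rich cells had none. Only 87 of 603 fibroblast-like cells had a UMI, 14.4% (11.7 to 17.5), and 4 of them held 40.6% of all its transcripts, with 40, 38, 28 and 25 each. For Il1r1 the 4 highest cells held 10.7% of the transcripts. The brake Irak3 was spread more evenly: 0.23, 0.43, 0.38 and 0.37 transcripts per 10000 in tumours 1 to 4 (0.352 ± 0.0886), 27.4% of cells with a UMI, and 9 transcripts in the highest cell. It was also found in pericyte-like (0.246 ± 0.117, n = 3) and smooth-muscle-like cells (0.235 ± 0.312, n = 4). Cajal-like (n = 2) and globin-rich cells (n = 3) stood at 0. The Cajal-like values rest on 10 cells, where 1 transcript of Il1r1 in tumour 4 made a level of 0.292 per 10000. Counts of 0 for Irak3 and Il1r2 in Cajal-like cells therefore do not show a level below that of fibroblast-like cells. The globin-rich cells are shallow, as given above.

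The antagonist Il1rn was nearly absent. It had 18 transcripts in 6 of the 603 fibroblast-like cells, and 13 of them came from 1 cell of tumour 3. Its level was 0, 0.003, 0.057 and 0.013 transcripts per 10000 in tumours 1 to 4, where 3 counts correspond to 0.113, 0.010, 0.012 and 0.013, so tumour 3 alone stood clearly above that floor. It did not pass the filter on low counts in any comparison below and was not tested. The ligands were also scarce in these cells, with Il1a at 0.018 ± 0.023 and Il1b at 0.014 ± 0.017 transcripts per 10000 of fibroblast-like cells (n = 4).

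**Figure D1:**
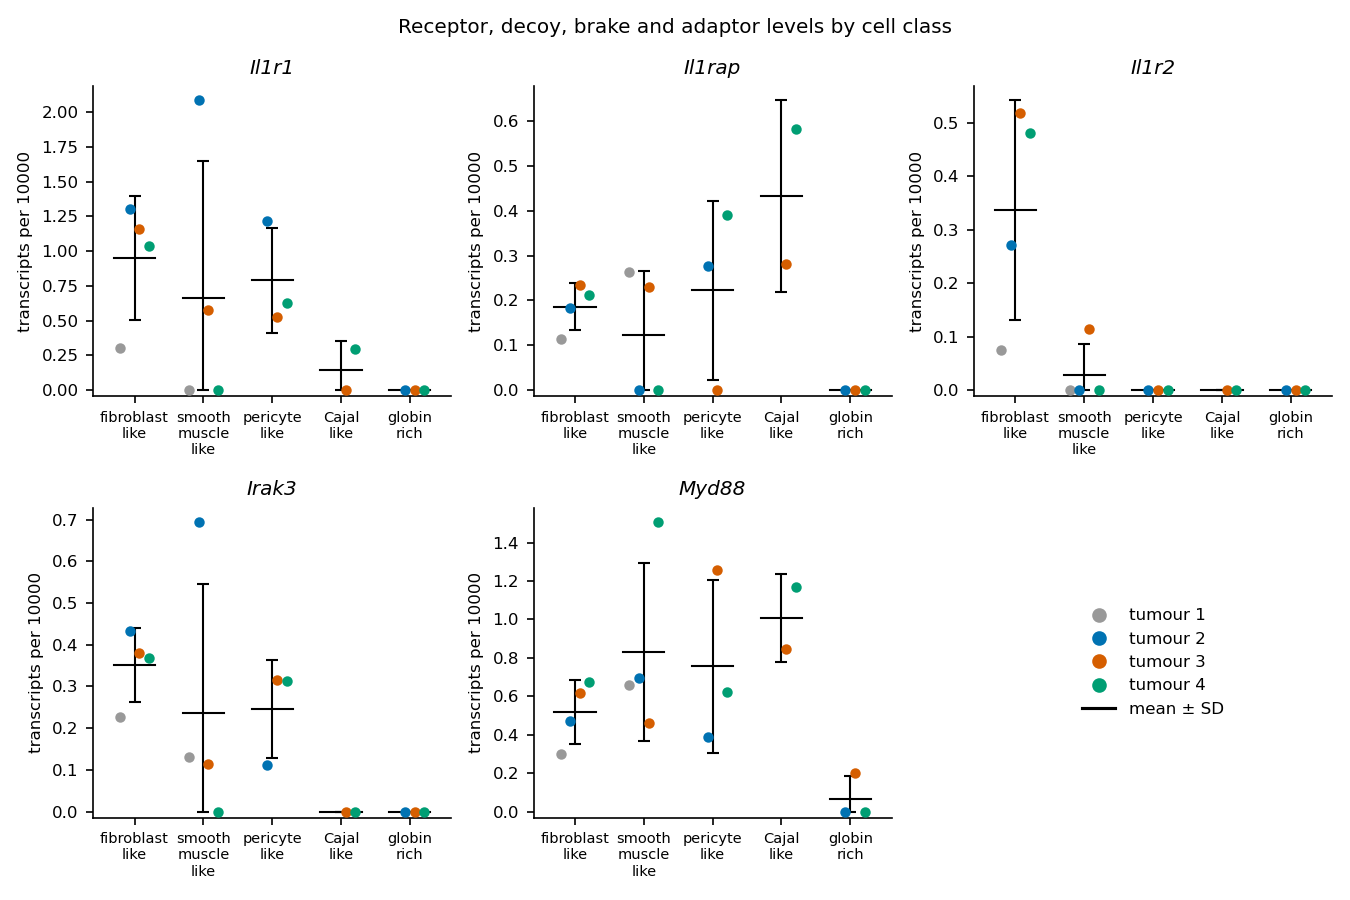
Levels of 5 genes (transcripts per 10000, linear axes that differ between panels) in each cell class, with 1 point per tumour that had at least 5 cells of the class; bars are the mean ± SD over those tumours, with the lower arm stopped at 0. Il1r2 lies above 0 in the fibroblast-like cells of all 4 tumours and in 1 tumour's smooth-muscle-like cells, whereas Il1r1, Il1rap, Irak3 and Myd88 are also found in pericyte-like cells.

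Fibroblast-like cells were set against mural-like cells, the smooth-muscle-like and pericyte-like cells together, to ask which of the genes mark fibroblasts within the sort. Tumours 2, 3 and 4 had enough of both (211, 201 and 161 fibroblast-like against 22, 18 and 21 mural-like cells). Il1r2 stood at 0.27, 0.52 and 0.48 transcripts per 10000 in fibroblast-like cells of tumours 2, 3 and 4, against 0, 0.055 and 0 in mural-like cells. The groups did not overlap, and the difference was a log2 fold change of 4.63 ± 0.80 (SE; adjusted p = 0.00142, edgeR quasi-likelihood test on sums per tumour). It rests on 322 against 1 transcripts, a ratio of levels of 22.6 with a counting interval of 4.04 to 898. Il1r2 was 1 of 5 tested genes of the set that passed an adjusted p of 0.05, and 10.9% of the 9048 genes tested did (6.39% higher and 4.47% lower). Irak3 was higher in fibroblast-like cells of all 3 tumours, at 0.43, 0.38 and 0.37 against 0.15, 0.22 and 0.24 in mural-like cells, without passing the test (log2 fold change 1.16 ± 0.43, adjusted p = 0.119, edgeR). Il1r1, at 1.30, 1.16 and 1.04 against 1.28, 0.55 and 0.48, did not pass either (0.84 ± 0.28, adjusted p = 0.0838, edgeR), and Il1rap (0.13 ± 0.49) and Myd88 (-0.05 ± 0.29) had adjusted p of 0.923 and 0.956. These misses do not show that the classes carry equal levels. Depth, RNA quality and markers of another cell type moved with this comparison. Median totals were 9574, 9539 and 11093 transcripts in fibroblast-like cells of tumours 2, 3 and 4, against 5361, 5757 and 4962 in mural-like cells, and median mitochondrial shares were 5.09 to 6.14% against 8.11 to 9.62%. Of 6 tested endothelial genes, 5 were lower in fibroblast-like cells, and the 10 listed summed to 0.685 to 0.841 transcripts per 10000 in fibroblast-like and 3.90 to 5.18 in mural-like cells. Pecam1, a defining endothelial gene, had 7 transcripts in 5 of all 740 cells. The part of these differences in the values of the set was not tested.

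Genes that interleukin 1 or NF-kB is known to induce were higher in fibroblast-like than in mural-like cells as a list: 20 of 25 tested rose and none fell, with a median log2 fold change of 1.85 against 0.03 over all genes. The matrix metalloproteinase Mmp3 averaged 7.52 ± 1.71 transcripts per 10000 in fibroblast-like cells and 0.147 ± 0.035 in mural-like cells (SD, n = 3 each), the prostaglandin synthase Ptgs2 averaged 3.75 ± 1.85 and 0.112 ± 0.062, and the chemokine Cxcl5 averaged 3.02 ± 1.99 and 0.112 ± 0.057. Of 30 tested genes of the wider interleukin 1 family pathway, 2 rose and 1 fell, a share close to the 6.39% higher and 4.47% lower over all genes, so the list as a whole did not stand out. The 3 genes were the alarmin Il33 (2.05 ± 0.691 in fibroblast-like and 0.054 ± 0.055 in mural-like cells), its receptor Il1rl1, which also pairs with IL1RAP (6.0 ± 3.93 and 0.513 ± 0.60), and the ubiquitin ligase Peli2, which was lower (0.314 ± 0.061 and 0.956 ± 0.126). A list of genes that rise when tissue is dissociated moved too, with 9 of 18 higher and 1 lower, and its part in the other differences was not tested.

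Within the fibroblast-like cells, Il1r1 was broad and Il1r2 was not. Il1r1 was detected in all 11 fibroblast-like clusters. Over the tumours with at least 5 cells in a cluster, its level was highest in cluster 6 (1.62, 2.04 and 1.69 transcripts per 10000 in tumours 2, 3 and 4), which was led by the collagenase genes Mmp13 and Mmp10 and by Il1rl1. Cluster 12, led by Fgf23, Ptx3 and Pi16, followed at 1.35 and 2.12 in tumours 2 and 4, and cluster 7, led by the B cell chemokine Cxcl13, at 0.34, 1.13, 2.67 and 1.34 in tumours 1 to 4. The lowest was cluster 9, led by Inmt and Mme, at 0.26 and 0.52 in tumours 3 and 4. No neighbours in the order of the 11 clusters differed by more than their spread.

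Il1r2 was led by 1 cluster. Cluster 0, whose leading genes hold Angptl7, Sfrp4 and the nerve growth factor receptor Ngfr, carried it at 1.58, 1.83 and 1.79 transcripts per 10000 in tumours 2, 3 and 4 (1.73 ± 0.135), and this cluster stood above the next by more than their spread. The next were cluster 9, at 0.95 and 0.35 in tumours 3 and 4, and cluster 1, led by the WNT regulators Sostdc1, Notum and Rspo1, at 0.14, 1.34 and 0.34 in tumours 2, 3 and 4. The value of 1.34 rests on 1 cell of 3010 transcripts in all, which held 13 of the 20 Il1r2 transcripts. Without the highest cell of each tumour, a setting chosen after these values were seen, cluster 0 was at 0.96, 1.03 and 1.10, cluster 1 at 0.098, 0.48 and 0.12, and cluster 9 at 0.72 and 0. The other 8 clusters averaged 0 to 0.197. Cluster 0 made up 81 of the 603 cells and held 36 of the 87 Il1r2-detected cells (41.4%) and 72.5% of the Il1r2 transcripts, and 8 of the 9 cells with at least 10 transcripts lay in it. These 8 came from tumours 2, 3 and 4. Of the transcripts of both receptors, Il1r2 supplied 50.9, 63.5 and 63.9% in cluster 0 and 6.89, 2.67 and 0% in cluster 6 of tumours 2, 3 and 4. In cluster 9 it supplied 78.3% in tumour 3, on 18 transcripts of Il1r2 and 5 of Il1r1, and in tumour 4 there were 2 transcripts of Il1r2 and 3 of Il1r1. Clusters were set by other genes, so these levels are given as a description.

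Irak3 shared part of that distribution. Its level was highest in cluster 12 (1.08 and 0.49 transcripts per 10000 in tumours 2 and 4), in cluster 0 (0.80, 0.68 and 0.63 in tumours 2, 3 and 4) and in cluster 3, led by complement C3, Cd55 and Col14a1 (0.56, 0.56, 0.57 and 0.56 in tumours 1 to 4). The lowest mean was in cluster 4, led by Kcnn3 and P2ry1, at 0.132 ± 0.119. Il1rap was highest in cluster 6 (0.531 ± 0.118, n = 3), the cluster where Il1r1 was also highest. Myd88 ranged from 0.283 ± 0.143 in cluster 2, led by Adamdec1 and Wnt4, to 0.925 ± 0.330 in cluster 9, and no neighbours in its order differed by more than their spread.

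**Figure D2:**
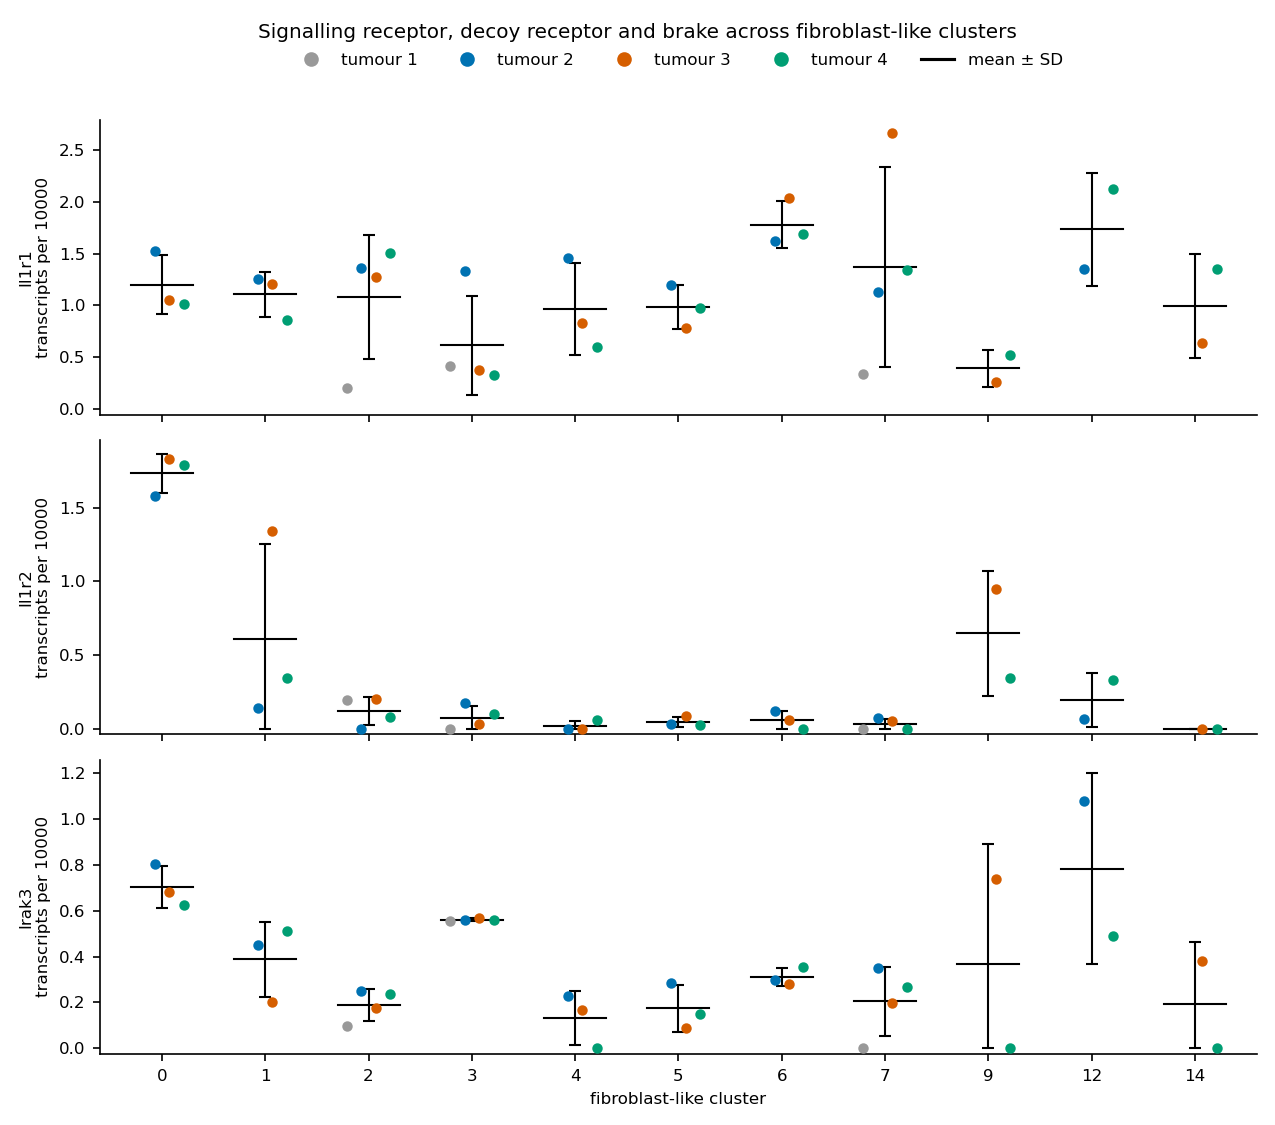
Il1r1, Il1r2 and Irak3 (transcripts per 10000, linear axes) across the 11 fibroblast-like clusters, 1 point per tumour with at least 5 cells in the cluster, with mean ± SD and the lower arm stopped at 0. Il1r2 is at 1.58 to 1.83 in cluster 0 and averages at most 0.647 elsewhere, while Il1r1 spreads over all clusters.

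**Figure D3:**
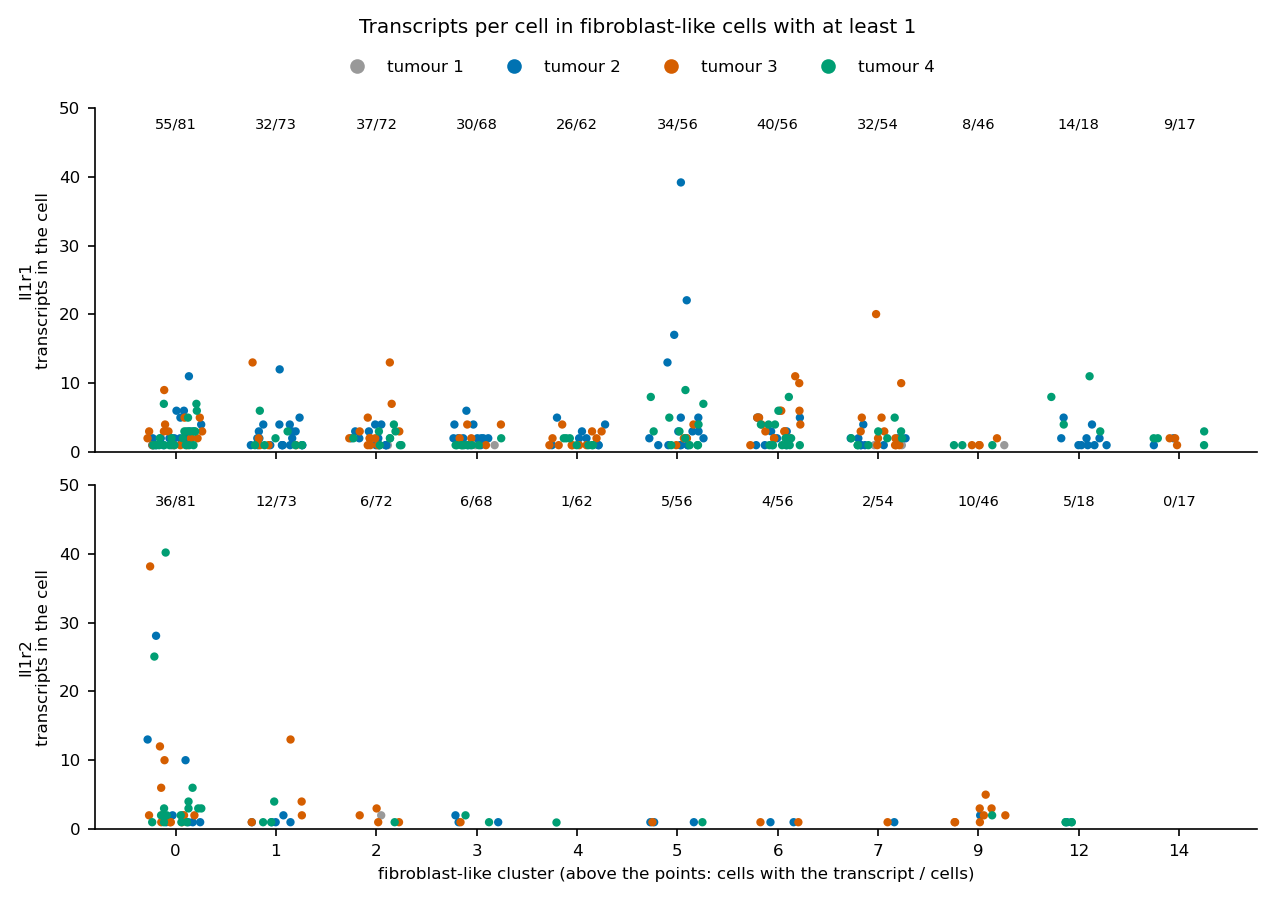
Transcripts of Il1r1 (top) and Il1r2 (bottom) in each fibroblast-like cell that had at least 1, by cluster and coloured by tumour, on linear axes; the fractions give cells with the transcript over cells in the cluster. The 4 cells with 25 to 40 Il1r2 transcripts all lie in cluster 0, and Il1r1 is found in 8 to 55 cells of every cluster.

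The 2 receptor genes are neighbours. Il1r2 lies at chr1:40074079-40125231 and Il1r1 at chr1:40225080-40317257, both on the plus strand of GRCm38 (GENCODE M21), with 99848 bases between them. Irak3 lies at chr10:120141648-120202130 on the minus strand. The promoter windows of Il1r2 and Irak3 are shown because these genes differed together between the groups of cells below. Those of Il1r1 are shown because it is the neighbour, which passed the threshold in none of the comparisons by marker score below. Such a miss does not show equal levels. Each window runs from 250 bases before to 50 bases after a RefSeq start (GRCm38.p6), 5′ to 3′ on the gene's strand. Capitals mark matches on either strand to CACGTG (an E-box), TTGCNNAA (the C/EBP half-site pair) or the NF-kB motif.
Il1r2 window (chr1:40085843-40086142, plus strand): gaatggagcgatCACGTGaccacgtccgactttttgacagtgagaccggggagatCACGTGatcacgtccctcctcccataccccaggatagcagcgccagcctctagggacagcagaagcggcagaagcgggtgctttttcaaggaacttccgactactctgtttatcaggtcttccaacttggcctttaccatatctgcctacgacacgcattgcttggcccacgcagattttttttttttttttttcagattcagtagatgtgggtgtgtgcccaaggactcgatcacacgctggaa
Irak3 first window (chr10:120201548-120201847, minus strand): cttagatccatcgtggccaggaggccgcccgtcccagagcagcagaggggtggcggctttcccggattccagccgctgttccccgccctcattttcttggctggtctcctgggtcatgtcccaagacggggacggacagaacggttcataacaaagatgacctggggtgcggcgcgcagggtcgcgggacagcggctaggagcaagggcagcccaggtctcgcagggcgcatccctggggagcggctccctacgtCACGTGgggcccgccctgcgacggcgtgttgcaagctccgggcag
Irak3 second window (chr10:120202081-120202380, minus strand): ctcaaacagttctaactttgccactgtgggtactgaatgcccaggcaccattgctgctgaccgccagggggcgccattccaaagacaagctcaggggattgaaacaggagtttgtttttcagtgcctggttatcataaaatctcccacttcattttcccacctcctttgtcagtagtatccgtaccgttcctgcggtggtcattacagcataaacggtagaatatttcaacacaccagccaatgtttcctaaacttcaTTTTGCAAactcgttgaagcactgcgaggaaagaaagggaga
Il1r1 first window (chr1:40224830-40225129, plus strand): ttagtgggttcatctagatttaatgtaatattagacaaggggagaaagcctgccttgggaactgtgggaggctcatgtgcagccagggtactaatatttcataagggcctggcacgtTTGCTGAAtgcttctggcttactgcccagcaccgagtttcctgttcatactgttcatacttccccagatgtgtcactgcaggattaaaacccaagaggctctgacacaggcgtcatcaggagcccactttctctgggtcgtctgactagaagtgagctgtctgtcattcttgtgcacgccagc
Il1r1 second window (chr1:40266336-40266635, plus strand): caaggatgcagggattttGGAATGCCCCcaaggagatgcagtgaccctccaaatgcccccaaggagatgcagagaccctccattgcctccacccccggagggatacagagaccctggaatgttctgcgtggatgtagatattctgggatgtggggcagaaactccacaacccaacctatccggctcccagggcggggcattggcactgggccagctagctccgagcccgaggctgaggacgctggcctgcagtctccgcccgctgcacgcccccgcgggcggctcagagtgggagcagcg
CACGTG occurred at 2 places in the Il1r2 window and once in the first Irak3 window, and in no other window of the set. It was present in 7.15% of the 32851 RefSeq windows of this length. TTGCNNAA, present in 10.8% of them, occurred once in the first Il1r1 window and once in the second Irak3 window. The NF-kB motif, present in 8.46%, occurred once in the second Il1r1 window, and TGANTCA, an AP-1 motif present in 7.81%, was found only for Il1rn. A match says that the letters are there, and nothing about binding.

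Fibroblast-like cells were then ranked within each tumour on 3 marker scores, to ask how the genes run with the states known in CAFs. Each score is the summed level of fixed markers: inflammatory (15 markers, of which C3 supplied 25.7% and Dpt 19.3% of the sum), contractile (15 markers, Postn 22.9%) and progenitor or adventitial (12 markers, Gsn 35.6% and Fn1 27.3%). The high-score cells were the upper-ranked 10, 70, 67 and 53 cells of tumours 1 to 4 and the low-score cells the lowest-ranked, 200 against 200 cells in all. These are ranges of a score and not cell types: 115 of the 603 cells lay within 10% of a limit for the inflammatory score, 112 for the contractile and 145 for the progenitor score. The 3 scores share cells, so the comparisons are not independent. Cells high in the inflammatory score had a median of 101 transcripts per 10000 of progenitor markers, against 60.4 in the low-score cells, and 27.9 of contractile markers, against 59.7. The progenitor markers did not all run together. Of 10 tested with the contractile score, 8 were lower in high-score cells and 1, Fn1, was higher. The part of Fn1 in the progenitor comparison was not tested.

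The decoy and the brake were higher in cells with a high progenitor score. Il1r2 stood at 0.24, 0.77, 0.47 and 1.02 transcripts per 10000 in high-score cells of tumours 1 to 4, against 0, 0.064, 0.047 and 0.087 in low-score cells. The groups did not overlap in any tumour, and the log2 fold change was 3.47 ± 0.32 (SE, n = 4; adjusted p = 6.19e-05, edgeR), on 181 against 17 transcripts. It was detected in 37 of 200 high-score and 15 of 200 low-score cells, and after thinning to 3000 UMIs in 12.2% and 1.79%. Il1r2 did not follow the progenitor markers cluster by cluster. Clusters 3 and 12 had the highest mean log2 fold of these markers over other cells (1.04 and 1.08), with Il1r2 at 0.075 ± 0.077 and 0.197 ± 0.183. Cluster 0 had a mean of 0.581, with Il1r2 at 1.73 ± 0.135. The part of cluster 0 in the score difference was not tested. Irak3 was at 0.60, 0.76, 0.57 and 0.56 in high-score cells, against 0, 0.23, 0.27 and 0.16 in low-score cells, higher in all 4 tumours with no overlap (log2 fold change 1.55 ± 0.31, adjusted p = 0.00976, edgeR). In edgeR Irak3 lost the call without tumour 2 (adjusted p = 0.0515), without tumour 4 (0.128) and without the tumour as a block (0.0590), with the log2 fold change at 1.45 to 1.56 in these fits. These were 2 of 5 tested genes of the set, where 6.66% of 7518 genes passed (3.66% higher and 3.01% lower). The receptor itself did not pass: Il1r1 was at 0.48, 1.30, 0.80 and 0.78 in high-score cells, against 0.18, 1.23, 1.40 and 0.91 in low-score cells (log2 fold change -0.26 ± 0.24, adjusted p = 0.669, edgeR). Il1rap (-0.82 ± 0.41) and Myd88 (0.57 ± 0.26) had adjusted p of 0.337 and 0.279.

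With the contractile score Il1r2 and Irak3 ran the other way. Il1r2 stood at 0.15, 0.056, 0.10 and 0.077 transcripts per 10000 in high-score cells of tumours 1 to 4, against 0, 0.25, 1.15 and 0.96 in low-score cells. It was lower in tumours 2, 3 and 4, while tumour 1 had 2 transcripts in 1 high-score cell and none in low-score cells. The log2 fold change was -3.09 ± 0.43 (SE, n = 4; adjusted p = 0.000913, edgeR), and the gene was found in 2.26% of thinned high-score and 13.8% of thinned low-score cells. Irak3 was at 0.076, 0.24, 0.25 and 0.18 in high-score cells, against 0.55, 0.61, 0.61 and 0.55 in low-score cells, lower in all 4 tumours with no overlap (-1.53 ± 0.27, adjusted p = 0.00356, edgeR). Myd88 was lower in tumours 2, 3 and 4, at 0.38, 0.38, 0.47 and 0.43 in high-score cells of tumours 1 to 4 against 0.28, 0.69, 0.96 and 0.99 in low-score cells (-1.05 ± 0.23, adjusted p = 0.0150, edgeR). In edgeR that call was lost without tumour 3 (adjusted p = 0.117), without tumour 4 (0.188) and without the block (0.0538). Thus 3 of 5 tested genes of the set passed, where 9.46% of 7443 genes did (4.43% higher and 5.02% lower). Il1r1 did not pass (0.15 ± 0.23, adjusted p = 0.786, edgeR), at a mean of 1.01 ± 0.540 in high-score and 0.872 ± 0.451 in low-score cells, nor did Il1rap (0.23 ± 0.44, adjusted p = 0.827, edgeR).

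With the inflammatory score the brake was the firmest of the set. Irak3 stood at 0.78, 0.65, 0.54 and 0.49 transcripts per 10000 in high-score cells of tumours 1 to 4, against 0.15, 0.12, 0.23 and 0.22 in low-score cells, higher in all 4 tumours with no overlap. The log2 fold change was 1.69 ± 0.31 (SE, n = 4; adjusted p = 0.00473, edgeR). Without tumour 2 it was 1.36 ± 0.36 and missed the threshold (adjusted p = 0.0622, edgeR). Il1r2 was at 0, 0.30, 0.75 and 0.72 in high-score cells, against 0.29, 0.072, 0.40 and 0.13 in low-score cells. It was higher in tumours 2, 3 and 4 and lower in tumour 1, where the low-score value is 2 transcripts of 1 cell (1.63 ± 0.39, adjusted p = 0.0267, edgeR). Its call was lost in edgeR without tumour 2 (adjusted p = 0.123), without tumour 4 (0.327) and without the block (0.190), and in DESeq2 (0.0916), while the log2 fold change stayed between 1.20 and 1.54. These were 2 of 5 tested genes of the set, where 6.07% of 7463 genes passed (3.59% higher and 2.48% lower). Myd88 was higher in all 4 tumours, at 0.638 ± 0.231 in high-score and 0.376 ± 0.195 in low-score cells, with overlap and without passing (0.85 ± 0.24, adjusted p = 0.0591, edgeR). It passed without tumour 1 (adjusted p = 0.0461, edgeR). Il1r1 was higher in 3 of 4 tumours, at 0.62, 1.91, 1.10 and 1.24 in high-score cells against 0.15, 0.66, 1.17 and 0.87 in low-score cells. It did not pass (0.77 ± 0.28, adjusted p = 0.151, edgeR), but did without tumour 3 (1.15 ± 0.31, adjusted p = 0.0432, edgeR). Il1rap did not pass (0.32 ± 0.40, adjusted p = 0.796, edgeR).

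**Figure D4:**
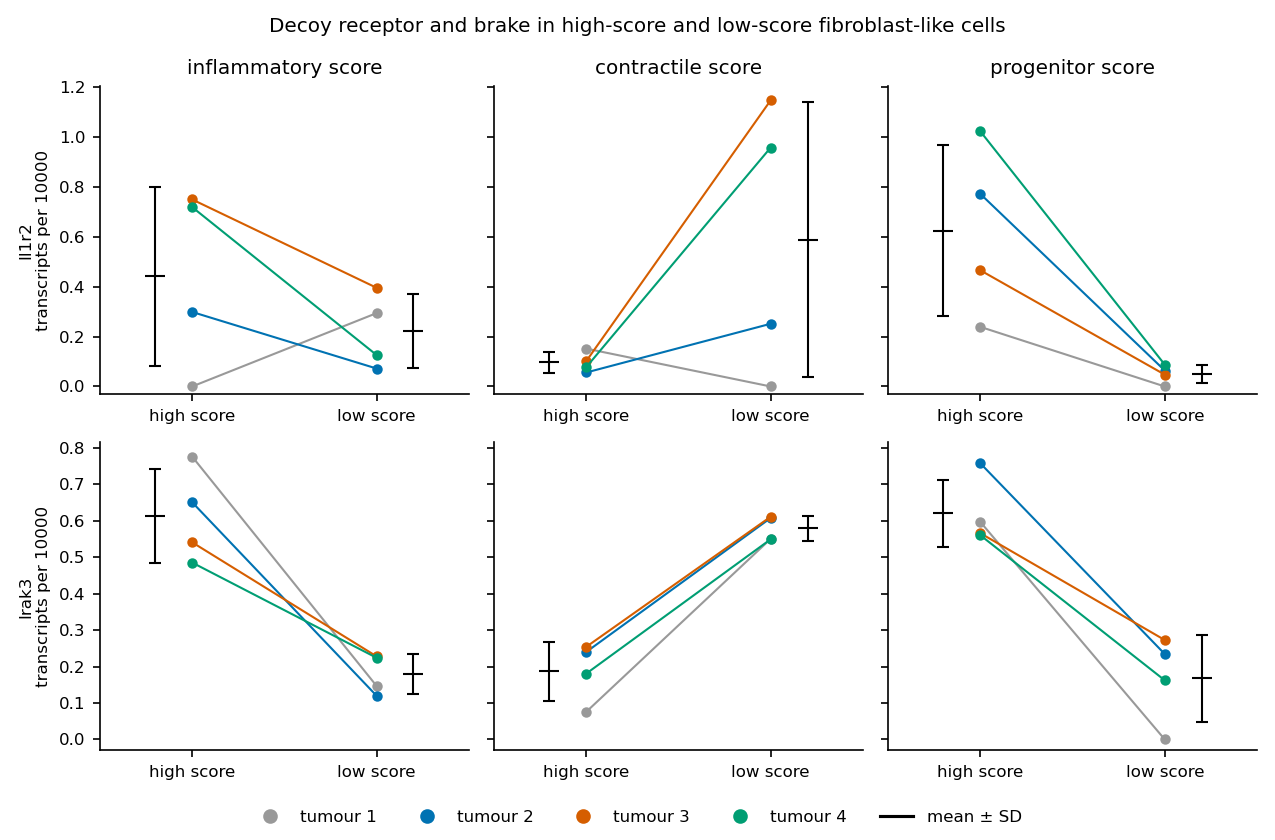
Il1r2 (top) and Irak3 (bottom) in transcripts per 10000 in high-score and low-score fibroblast-like cells of the same tumour, joined by a line per tumour, for the inflammatory, contractile and progenitor scores; black marks are the mean ± SD over 4 tumours, with the lower arm stopped at 0. All 4 tumours run the same way for Irak3 in every score and for Il1r2 in the progenitor score, and tumour 1 runs the other way for Il1r2 in the inflammatory and contractile scores.

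**Figure D5:**
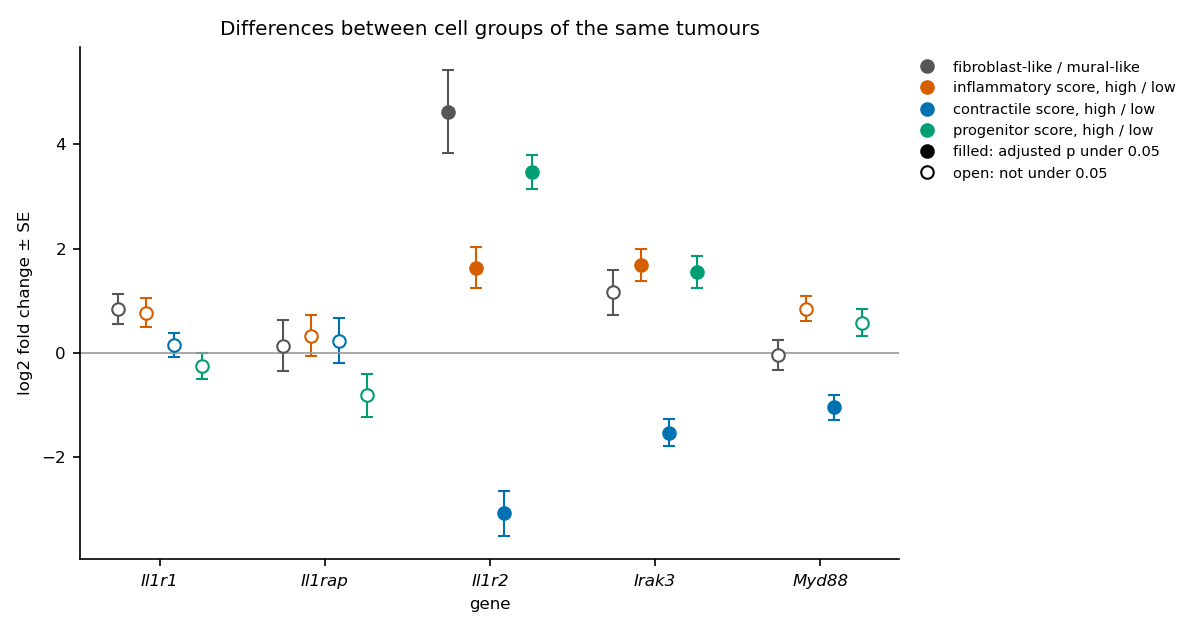
Log2 fold changes (± SE, edgeR quasi-likelihood fits) of 5 genes between fibroblast-like and mural-like cells (3 tumours) and between high-score and low-score fibroblast-like cells (4 tumours); filled points have an adjusted p under 0.05. Il1r2 is filled in all 4 comparisons, from -3.09 to 4.63, Irak3 in the 3 scores, Myd88 in the contractile score, and Il1r1 and Il1rap in none.

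The groups also differed in other ways. High-score cells were deeper than low-score cells for the inflammatory score in tumours 2, 3 and 4 (medians of 12154, 12592 and 11776 against 7948, 6849 and 10630 transcripts) and for the contractile score in all 4 tumours, and shallower for the progenitor score in tumours 2, 3 and 4. Genes of the dissociation list had a median summed level of 209, 129 and 199 transcripts per 10000 in cells high in the inflammatory, contractile and progenitor scores, against 138, 201 and 135 in the low-score cells. Of its 18 genes, 4, 1 and 3 passed as higher and 0, 7 and 1 as lower in the 3 scores. Markers of other cell types moved as well. Of the tested telocyte genes (telocytes are long-process cells under the gut epithelium), 0 of 8, 6 of 7 and 0 of 8 were higher and 6, 0 and 5 lower in the inflammatory, contractile and progenitor scores. Of the tested smooth muscle genes, 0 of 8, 4 of 6 and 0 of 8 were higher and 4, 1 and 4 lower. For the contractile score the 10 telocyte genes summed to 9.60 to 20.4 transcripts per 10000 in high-score and 6.56 to 9.78 in low-score cells, and 9 smooth muscle genes to 3.11 to 8.88 and 1.74 to 3.38. The part of these differences in the values of Il1r2, Irak3 and Myd88 was not tested. The sequencing run in the plate name also sets tumour 1 apart from tumours 2, 3 and 4. Within tumours 2, 3 and 4, Il1r2 had log2 fold changes of 1.75 ± 0.33, -3.29 ± 0.32 and 3.46 ± 0.27 in the inflammatory, contractile and progenitor scores, and Irak3 had 1.66 ± 0.29, -1.5 ± 0.23 and 1.46 ± 0.24, all past the threshold in edgeR. A single tumour of the other run gives no test within it.

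Known targets of the pathway did not all run with the brake. Of 25 tested genes that interleukin 1 or NF-kB is known to induce, 12 rose and none fell with the inflammatory score (median log2 fold change 1.21, against -0.02 over all genes). Among them were the acute-phase gene Saa3 (11.5 ± 12.2 in high-score and 1.77 ± 1.88 transcripts per 10000 in low-score cells, n = 4), the metalloreductase Steap4 (2.84 ± 1.10 and 0.384 ± 0.295) and Tnfaip3, which encodes the NF-kB inhibitor A20 (2.72 ± 1.31 and 0.629 ± 0.472). Without the block 3 rose, without tumour 4 there were 7, and without tumour 2 there were 8, with 1 lower. The inflammatory score is itself a sum that holds cytokine and chemokine genes, among them Il6, Cxcl1, Ccl2 and Lif. The rise of the target list with this score is therefore not independent of how the cells were ranked, and it is given as a description. With the contractile score 6 rose and 7 fell (median 0.10). The 6 included the proteases Mmp13 (27.2 ± 20.3 in high-score and 0.447 ± 0.311 in low-score cells) and Mmp10 (15.9 ± 12.3 and 0.513 ± 0.694), and the 7 included Steap4, Tnfaip3 and Tnfaip6. Without tumour 3 or without tumour 4, 5 rose and 1 fell, and without the block 2 rose and 1 fell. With the progenitor score 3 rose, Tnfaip6, Steap4 and Tnfaip3, and 4 fell, Mmp13, Mmp10, Mmp3 and the growth factor Ereg (median -0.44). Without the block none rose and 1 fell, without tumour 3 there were 2 and 2, and without tumour 4 there were 1 and 3.

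Of the wider pathway list, 2 of 24, 3 of 24 and 3 of 23 tested genes passed in the inflammatory, contractile and progenitor scores. Of all genes, 6.07, 9.46 and 6.66% did, so the shares of the list were no lower, on 2 or 3 genes each. Il33 and Casp4 passed in all 3 scores, and Il1rl1 in the contractile and progenitor scores. Il33 rose with the inflammatory score (3.30 ± 1.84 in high-score and 0.298 ± 0.225 transcripts per 10000 in low-score cells; log2 fold change 3.36 ± 0.30) and with the progenitor score (1.60 ± 0.35), and fell with the contractile score (-1.89 ± 0.48). Its receptor Il1rl1 rose with the contractile score, at 11 ± 10.9 in high-score and 0.358 ± 0.312 in low-score cells (4.68 ± 0.32), and fell with the progenitor score (-4.73 ± 0.31). Casp4, an inflammatory caspase, rose with the inflammatory (1.35 ± 0.26) and progenitor scores (1.27 ± 0.30) and fell with the contractile score (-1.22 ± 0.24).

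Co-detection in single cells depended strongly on depth. At full depth, 83 of 603 fibroblast-like cells had UMIs of both Il1r1 and Il1rap, and 45 of these also had Myd88. A brake (Il1r2, Il1rn or Irak3) was seen in 147 of the 317 Il1r1-detected cells, none in the other 170, and 151 cells had none of the 6 genes. Il1r1-detected cells had a median of 13821 transcripts against 5914 in undetected cells, and every pair examined was seen together more often than the product of its shares within tumours gives. For Il1r1 and Il1r2 there were 62 cells with both, where the product of the shares gives 46.4, a ratio of 1.34. After thinning to 3000 UMIs there were 5 cells with both, where the product gives 10.8, a ratio of 0.461, and the ratio was below 1 in each tumour. Il1r1 and Il1rap were together in 14 cells against 8.43, a ratio of 1.66, and above 1 in tumours 2, 3 and 4. Il1r1 and Irak3 had 1.56, Il1r1 and Myd88 1.05, and Il1r2 and Irak3 1.10. These are small counts from 1 random thinning and are given without a test.

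Il1r1-detected cells were compared with undetected cells of tumours 2, 3 and 4 (122, 88 and 99 against 89, 113 and 62 cells), to ask what else differs in cells where the receptor is seen. Of 8946 genes, 0.771% passed (0.548% higher and 0.224% lower). In the set, Il1r2 did, at 0.34, 0.67 and 0.53 transcripts per 10000 in detected against 0.097, 0.26 and 0.32 in undetected cells (log2 fold change 1.30 ± 0.24, adjusted p = 0.0271, edgeR). The call was lost in edgeR without tumour 2 (adjusted p = 0.0567), without tumour 3 (0.140) and without the block (0.387), and in DESeq2 (0.329), with the log2 fold change at 1.14 to 1.32. With detection called after thinning to 3000 UMIs it turned to -0.62 ± 0.53 (adjusted p = 0.931, edgeR), so this direction is not independent of depth. Il1rap (0.74 ± 0.33), Irak3 (0.30 ± 0.23) and Myd88 (-0.21 ± 0.20) did not pass in either setting.

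Among the interleukin 1 and NF-kB target genes, 7 of 25 rose in Il1r1-detected cells and none fell, with Cxcl5 (4.25 ± 3.24 in detected and 0.601 ± 0.347 transcripts per 10000 in undetected cells, n = 3) and Mmp3 (9.77 ± 2.97 and 2.54 ± 1.21) at the highest log2 fold changes of the 7, 2.78 and 2.05. Without tumour 3, 2 rose, and in DESeq2 3 did. After thinning, 2 rose, the adhesion molecule Vcam1 (1.39 ± 0.15, adjusted p = 0.00247, edgeR) and Ptgs2 (0.73 ± 0.13, adjusted p = 0.0323, edgeR). Neither was among the 7, and none of the 7 passed after thinning. Of 13 inflammatory markers, 3 rose in each setting, and 2 of them were shared. The chemokine Cxcl14 was at 12.8 ± 2.16 in detected and 5.62 ± 0.929 in undetected cells (log2 fold change 1.24 ± 0.14, and 0.94 ± 0.15 after thinning). The cytokine Lif was at 1.45 ± 0.865 and 0.523 ± 0.490 (1.67 ± 0.25, and 1.54 ± 0.27). No contractile or progenitor marker passed at full depth, of 15 and 11 tested, and after thinning the contractile marker Lrrc15 was lower (-1.23 ± 0.23, adjusted p = 0.0486, edgeR). Without the tumour as a block, 1 gene of all tested passed and no target gene did.

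Il1r2-detected cells were compared with undetected cells in the same way. Of the 87 Il1r2-detected cells 62 also had Il1r1, so the cells of both comparisons overlap, and the difference between the comparisons was not tested. Il1r2-detected cells (25, 33 and 28 in tumours 2, 3 and 4) had medians of 13832, 16204 and 24959 transcripts, against 8658, 9158 and 9802 in the 186, 168 and 133 undetected cells. Of 8792 genes, 2.24% passed (1.3% higher and 0.944% lower), and none of the 4 other tested genes of the set did. Irak3 was nearest, at 0.74, 0.70 and 0.38 transcripts per 10000 in detected against 0.38, 0.28 and 0.36 in undetected cells (log2 fold change 0.87 ± 0.25, adjusted p = 0.103, edgeR), and it passed without tumour 4 (1.17 ± 0.27, adjusted p = 0.00903, edgeR). Il1r1 was at 1.64, 1.26 and 1.12 in detected against 1.24, 1.13 and 1.01 in undetected cells (0.30 ± 0.16, adjusted p = 0.533, edgeR). Progenitor markers were higher: 3 of 11 passed at full depth and 7 of 12 after thinning, none lower. Cd34 was at 7.92 ± 1.88 in detected and 3.56 ± 1.29 in undetected cells (1.26 ± 0.18, adjusted p = 0.00212, edgeR, and 1.53 ± 0.22 after thinning). Of 13 inflammatory markers, 4 were higher at full depth, Ly6c1, Has1, Ccl7 and Clec3b, and Il11 was lower, while after thinning Has1 and Ly6c1 were higher. Contractile markers were lower, 1 of 15 at full depth and 8 of 15 after thinning, none higher, and Inhba, a chain of activin, was at 0.762 ± 0.374 in detected and 3.57 ± 0.727 in undetected cells (-2.22 ± 0.27). Of the 25 target genes, 2 fell at full depth and 3 after thinning, and none rose. None passed in DESeq2 or without the block, and leaving out tumour 2, 3 or 4 gave 3, 1 and 2 higher and 5, 5 and 3 lower. Ereg was lower in both settings, at 0.880 ± 0.908 in detected and 3.10 ± 1.45 in undetected cells (-2.06 ± 0.38). These are the same cells and tumours as in the score comparisons, and they are no second set of samples.

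Over 33 sums, 1 per tumour and cluster with at least 10 cells, the genes most like each member were sought among 5705 genes by Pearson r, centred within tumour. Il1r2 was most like Ngfr (r = 0.86), Angptl7 (0.85), the neurotrophin receptor Ntrk2 (0.84), Adam33 (0.84) and Ptpn5 (0.82). Irak3 was most like Fam102a (0.81), Gpnmb (0.80), Slc10a6 (0.76), Epdr1 (0.75) and Pcolce2 (0.75). Il1r1 was most like Cstb (0.73), Prdx5 (0.71), Srpx2 (0.70), Atox1 (0.67) and the transcription factor Cebpb (0.66). Il1rap was most like Igf2 (0.82) and Stx6 (0.78), and Myd88 was most like Pdcd4 (0.76) and Ubtf (0.72). Between the genes of the set, r was 0.57 for Il1r2 and Irak3, 0.42 for Il1r1 and Il1rap and -0.16 for Il1r1 and Il1r2. The sums of a tumour share its plate and depth, and those of a cluster its defining genes, among them Ngfr and Angptl7, so these values describe the table and carry no p.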

How the data were processed

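Cells of 4 tumours, sorted as CAFs, were read by SORT-seq with CEL-Seq2 libraries, per the labels' protocols. The deposited values are estimated counts (expected counts) of transcripts per gene and well, corrected by the authors for UMI saturation: 2 identifiers stand as slightly more than 2 transcripts. BWA and the mm10 build are named in the submitters' processing notes without versions; which program counted the reads, and on which gene models, was not given in the sources used here, so reads of overlapping or antisense genes may not be told apart. The sequencing run in the plate names of tumour 1 differs from that of tumours 2 to 4.

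Wells were kept at 1000 transcripts or more and 30% mitochondrial transcripts or less. Spike-in rows were left out of totals. Leiden clusters (1500 features, 20 components, 15 neighbours, resolution 1; scanpy 1.11.5, leidenalg 0.10.2, Python 3.11.15) were made without the 6 genes, their pathway and their targets. Clusters were named from marker lists, and a rule for fibroblast-like clusters (mean log2 fold of the markers above -1) was set after seeing them. With 1 cell sorted per well, no doublet caller was run. The 6 genes and all lists were chosen with earlier results of these data known.

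Counts were summed per tumour and cell group of at least 10 cells (5 for Il1r2-detected cells), rounded, and tested with edgeR 4.0.16 (quasi-likelihood; R 4.3.3, limma 3.58.1) over all genes passing its filter on low counts, with the tumour as a block and Benjamini-Hochberg adjustment. Genes that set the groups were left out of the adjustment. The block is the main design because both groups are cells of the same tumour. Alternatives were RLE scaling, DESeq2 1.42.0, no filter, no block, whole UMIs, stricter limits on wells, classes by marker score, a split of the scores at the median, thinned detection and leaving out each tumour. A log-scaled score and Il1r2 levels without the highest cell of each tumour were chosen after seeing the data. The fit was tested on simulated data. Named genes were the 6 genes, up to 6 called genes per list and comparison by size of change, and the 5 genes most like each of the 6 among those with at least 50 UMIs. Intervals are 95% (exact; scipy 1.17.1), the floor is 3 counts, and levels need 5 cells. Promoter windows are from RefSeq (GRCm38.p6) and gene positions from GENCODE M21.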

Additional observations from a re-analysis of the deposited data

Results flagged for a closer look

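The 796 wells outside the limits on depth and mitochondrial share enter no comparison, and they held 384464 transcripts in all. Transcripts of 5 of the 6 genes were found there, above the limit of 3 counts. Il1r1 had 12 transcripts in 8 wells, 0.312 per 10000, and Il1r2 had 10 in 5 wells, 0.260 per 10000. Il1rap stood at 0.208 per 10000 with 8 transcripts in 7 wells, Irak3 at 0.364 with 14 in 13 wells, and Myd88 at 0.156 with 6 in 5 wells. The 683 of these wells under the transcript minimum, taken alone, had Irak3 and Il1r2 at 0.621 per 10000 on 10 transcripts each, and Il1r1 at 0.497 on 8. In fibroblast-like cells the means of Irak3, Il1r2 and Il1r1 were 0.352, 0.336 and 0.950. The labels do not tell empty wells from failed ones. In 12 sets of 4 tumour values, the highest and the lowest tumour were set against the others by their gap over the range, and no value passed the critical value of 0.829.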

How the results depend on the processing

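Over 374 recomputed values of the genes of the set, 349 kept their side of the threshold, 15 kept the direction but missed the threshold, 9 newly passed it and 1 reversed. Most of the 349 were genes called in neither fit, so this count is no measure of how firm the calls are. It also holds fits without tumour 1 for the mural-like and detection comparisons, which tumour 1 is not in, so those values could not change. The 15 missed values and the reversed one all belong to genes that passed in the main fits. Among the 349, 20 had the opposite sign with the gene called in neither fit. The reversed value was Il1r2 between Il1r1-detected and undetected cells, at -0.62 with thinned detection. Without the filter on low counts the genes of the set that passed were 2 between fibroblast-like and mural-like cells (1 as reported), 4 for the inflammatory score (2) and 1 in Il1r2-detected cells (0). All genes that passed without the filter were 843, 1150 and 875 for the inflammatory, contractile and progenitor scores and 308 and 485 for detection of Il1r1 and Il1r2, against 453, 704, 501, 69 and 197 as reported.

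The pairing is by tumour, since both groups are cells of the same tumour. Without the tumour as a replicate block, 143, 307 and 134 genes passed for the 3 scores, and 1 and 23 for detection of Il1r1 and Il1r2. Of the set, 1 then passed for the inflammatory score, 1 for the progenitor score and 0 in Il1r1-detected cells. With DESeq2, 1 of the set passed for the inflammatory score and 0 in Il1r1-detected cells, with 24 and 93 genes in all for detection of Il1r1 and Il1r2. A split at the median gave 330 genes for the progenitor score. Thinned detection of Il1r1 gave 21 genes and 0 of the set.

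Leaving out each tumour in turn gave 441 to 982 genes between fibroblast-like and mural-like cells, lowest without tumour 2. Tumour 1 is not in this comparison, so the fit without it is the main fit, with its 982 genes. The ranges were 197 to 565 genes and 0 to 3 of the set for the inflammatory score, 264 to 954 and 2 to 3 for the contractile score, and 123 to 656 and 1 to 2 for the progenitor score, each lowest in genes without tumour 4 and highest without tumour 1. In Il1r1-detected cells they were 69 to 113 genes and 0 to 1 of the set, and in Il1r2-detected cells 179 to 262 and 0 to 1. Tumour 1 is in neither of these comparisons by detection, and the 69 is the count of the main fit. The cause of these differences was not tested; fits without a tumour have fewer samples. The level of Irak3 in fibroblast-like cells was 0.444 per 10000 with totals that leave out mitochondrial genes and Rn45s. After thinning, co-detection ratios were 0.461 for Il1r1 with Il1r2, 1.66 with Il1rap, 1.05 with Myd88, 1.56 with Irak3, and 1.10 for Il1r2 with Irak3. Il1rn is limited by its 18 transcripts, and the smooth-muscle-like, pericyte-like and Cajal-like classes by their 35, 34 and 17 cells.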
